A study of Mus musculus with 34 samples.

Results

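Islets of mice sampled 30 days after ablation of beta cells with a toxin were compared with islets of untreated mice. Every mouse of the series has the genotype label RIP-DTR HTZ. In RIP-DTR mice a receptor for diphtheria toxin (DT) is placed under the rat insulin promoter, so that insulin-producing cells carry it. The tested mice received DT and were sampled 30 days after ablation (DT 30 DPA, n = 4 libraries). The mice they were set against carry the same transgene and have the treatment label None, with no time or diet in the title (CTRL, n = 3 libraries). The 7 libraries were chosen by title and treatment label out of 34 in the series, which also holds islets taken 5 days after DT and at 10 weeks after DT or streptozotocin on 2 diets. As background, the RIP-DTR transgene is X-linked, so that heterozygous females lose only the beta cells that express it. The labels give no sex or age, do not say how complete the ablation was, name no vehicle for CTRL, and do not say whether each library came from its own animal. The p-values can then reflect no more than sample-to-sample spread, which may be technical.

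Beta cells make insulin in bulk. Preproinsulin enters the endoplasmic reticulum (ER) through the Sec61 channel, signal peptidase removes its leader, chaperones and disulfide isomerases fold it, and coated vesicles carry it to the Golgi and into granules, where convertases cut it to insulin. When unfolded protein builds up in the ER, the sensors IRE1, PERK and ATF6 switch on the unfolded protein response (UPR), which raises ER chaperones. Where only part of the beta cells is lost, the remaining cells have to meet the insulin demand of the animal.

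The depth was even, with total counts between 13794218 and 15742834 in the DT 30 DPA libraries and between 13537906 and 14743210 in the CTRL libraries. Levels are given as CPM, the counts of a gene relative to all counts of its library, after TMM, edgeR's correction of library size for RNA composition. The islet label held in every library: the summed CPM of the 5 beta-cell markers was 125601 to 305927 in DT 30 DPA islets and 44496 to 145982 in CTRL islets, and none was at 0. Replicate 2 of each group stood apart. DT 30 DPA replicate 2 held 1297 CPM of 3 sympathetic neuron markers, against 20.4 to 61.7 CPM in the other DT 30 DPA libraries and 7.19 to 35.3 CPM in CTRL. Both replicates 2 held RNA of intestinal absorptive cells: the 5 enterocyte markers summed to 2695 CPM in DT 30 DPA replicate 2 and 4752 CPM in CTRL replicate 2, against at most 14.6 CPM and 154 CPM in the other libraries of each group. CTRL replicate 2 was also the lowest in beta-cell markers. Counts are therefore also given without both replicates 2.

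Of 17616 genes tested, 41 (0.233%) passed edgeR's quasi-likelihood test at a Benjamini-Hochberg adjusted p below 0.05. Of these, 31 (0.176%) were higher and 10 (0.0568%) were lower in DT 30 DPA islets. The 41 lie at the edge of the threshold: Entpd4 had an adjusted p of 0.0398, the other 40 shared the value 0.04999, and 497 genes had an adjusted p below 0.06. With hormone genes left out before scaling the calls numbered 312 (166 higher and 146 lower), and the DESeq2 Wald test made 1849 calls (905 higher and 944 lower). The calls depended on single libraries: 0 genes passed without CTRL replicate 1 or 2 or without DT 30 DPA replicate 2 or 4, while 4273 passed without CTRL replicate 3, 639 without DT 30 DPA replicate 1 and 237 without DT 30 DPA replicate 3. None of the 41 changed direction in the fits with 1 library left out. That is no independent support, because the 41 were chosen for their difference in these same libraries. A second, untested measure is used beside the calls, namely whether all 4 DT 30 DPA libraries lay above, or all 4 below, all 3 CTRL libraries. By that measure 7.5% of all genes were higher and 4.92% were lower, and 39 of the 41 called genes had groups that did not overlap. Without both replicates 2 the shares over all genes were 12.5% and 10.5%.

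**Figure D1:**
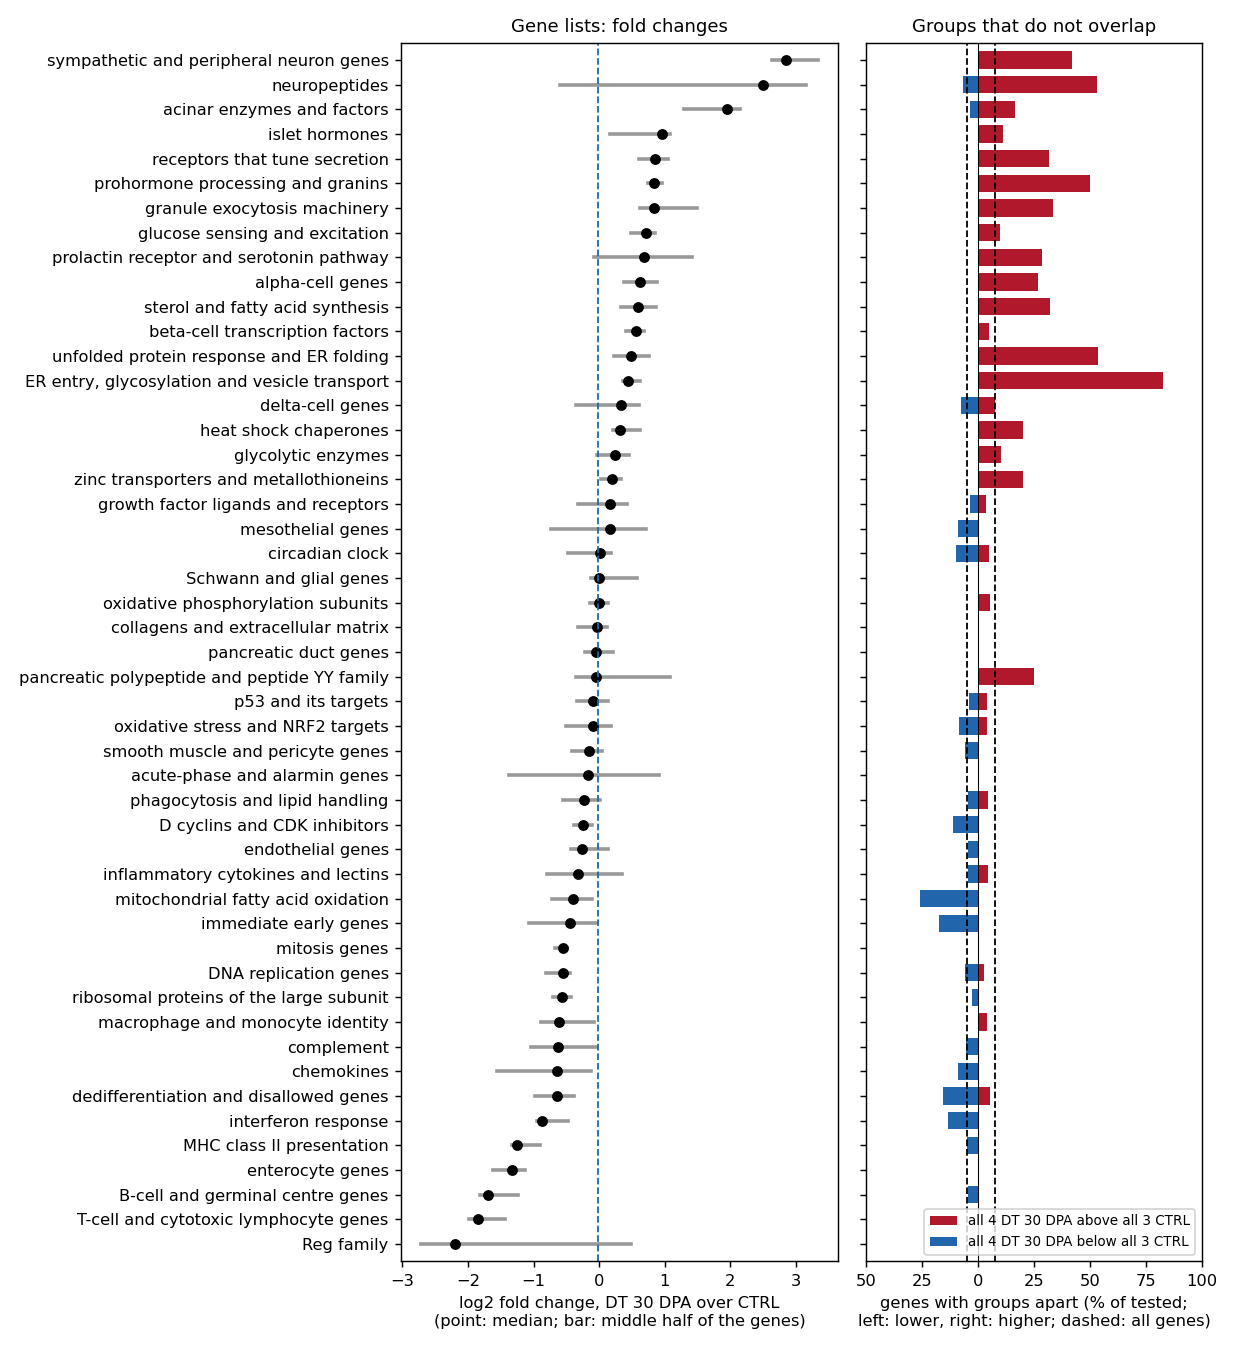
Gene lists in DT 30 DPA islets (n = 4) against CTRL islets (n = 3). Left, the median log2 fold change of each list's tested genes (point) with the middle 50% of the genes (bar) and the median of all genes (dashed line). Right, the percentage of each list's tested genes whose groups did not overlap, higher to the right and lower to the left, with the shares of all genes (dashed lines, 7.5% and 4.92%). The list for ER entry, glycosylation and vesicle transport has the longest bar, with 33 of its 40 genes higher.

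The list of ER entry, glycosylation and vesicle transport had 40 members, all tested: 39 had fold changes above 0, with a median log2 fold change of 0.45 against -0.02 over all genes. In 33 of the 40 all DT 30 DPA libraries lay above all CTRL libraries, against 7.5% of all genes. Without both replicates 2 this held for 39 of the 40, against 12.5%. Only Ostc and Ddost of this list passed the test at an adjusted p below 0.05, and 11 members had an adjusted p below 0.06. The median stayed between 0.40 and 0.52 under each scaling and with each library left out. The member below 0 was Stt3b, a catalytic subunit of oligosaccharyltransferase, at -0.26 (SE 0.13).

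Called genes that are not on the list are described with it, by roles assigned after the calls were known. Entry into the ER was represented by 2 subunits of signal peptidase, the enzyme that cuts signal peptides from new secretory proteins. Spcs1 is on the list of prohormone processing and Spcs2 on none. Spcs2 was at 231.4, 192.5, 237.4 and 219.2 CPM in DT 30 DPA islets, against 150.5, 124.0 and 147.4 CPM in CTRL islets. Spcs1 was at 110.7, 97.4, 116.6 and 104.6 CPM in DT 30 DPA islets, against 64.4, 54.3 and 73.9 CPM in CTRL islets. In neither gene did the groups overlap, and both rose, Spcs2 1.56-fold (log2 0.65, SE 0.13) and Spcs1 1.67-fold (log2 0.74, SE 0.16), each at the shared edgeR adjusted p of 0.04999. Among members of the ER entry list that missed the threshold, Srpr, a receptor subunit for the signal recognition particle, was at 255 to 350 CPM in DT 30 DPA islets and 119 to 227 CPM in CTRL islets (edgeR adjusted p 0.0516). The channel subunit Sec61a1 was at 200 to 243 CPM in DT 30 DPA islets and 142 to 181 CPM in CTRL islets (edgeR adjusted p 0.0665).

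Oligosaccharyltransferase, the complex that attaches sugar trees to proteins as they enter the ER, had 3 subunits or partners among the called genes. Ostc, a subunit of the translocon-bound form, was at 106.1, 91.2, 95.7 and 105.4 CPM in DT 30 DPA islets, against 53.1, 52.4 and 63.8 CPM in CTRL islets. Ddost, a shared subunit, was at 231.3, 184.2, 231.9 and 229.5 CPM in DT 30 DPA islets, against 143.6, 108.5 and 154.4 CPM in CTRL islets. Magt1, an oxidoreductase subunit of the other form, was at 190.0, 145.9, 175.0 and 187.2 CPM in DT 30 DPA islets, against 98.9, 80.6 and 123.3 CPM in CTRL islets. The lowest DT 30 DPA library of each gene was replicate 2, and it still lay above every CTRL library. The fold changes were 1.76 for Ostc, 1.62 for Ddost and 1.73 for Magt1. Mlec, a lectin that binds newly glycosylated proteins in the ER, rose 1.54-fold, to 329 ± 15 CPM in DT 30 DPA islets (SD, n = 4) against 214 ± 13 CPM in CTRL islets (SD, n = 3). Pgm3, which makes a precursor of the sugar donor UDP-GlcNAc, rose 1.95-fold, to 37.09 ± 2.21 CPM in DT 30 DPA islets (SD, n = 4) against 19.03 ± 5.75 CPM in CTRL islets (SD, n = 3). The core subunits Rpn1 and Rpn2 missed the threshold, both with an edgeR adjusted p of 0.0516 and groups that did not overlap.

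Transport out of the ER and in the Golgi was represented by Nbas, Entpd4, C1galt1c1 and Atp6v0a1. Nbas (chr12:13269133-13583811), a tethering factor for vesicles returning to the ER, was at 76.3, 59.4, 68.8 and 74.9 CPM in DT 30 DPA islets, against 33.0, 25.2 and 40.1 CPM in CTRL islets, a 2.13-fold rise. Entpd4 (chr14:69337174-69367270), a nucleotidase of the Golgi, had the smallest adjusted p of all genes (0.0398, edgeR), with 33.9, 33.9, 39.3 and 36.5 CPM in DT 30 DPA islets, against 20.3, 14.1 and 17.0 CPM in CTRL islets. The mouse genome holds a near-identical copy of Entpd4, and reads of that copy may be counted in its value. C1galt1c1, the chaperone of the enzyme that extends O-linked sugars, rose 1.61-fold. Atp6v0a1, a subunit of the proton pump that acidifies granules and lysosomes, rose 1.80-fold, with DT 30 DPA replicate 2 the highest library at 159.8 CPM. Cargo receptors and coat proteins had fold changes above 0 without passing the test. Lman1, a cargo receptor, was at 259 to 335 CPM in DT 30 DPA islets and 65.5 to 195 CPM in CTRL islets (edgeR adjusted p 0.0502). Tmed2, a coat-binding cargo receptor, was at 232 to 313 CPM in DT 30 DPA islets and 179 to 210 CPM in CTRL islets (edgeR adjusted p 0.0502). Cope, a coat subunit of retrograde vesicles, was at 130 to 146 CPM in DT 30 DPA islets and 89.9 to 102 CPM in CTRL islets (edgeR adjusted p 0.0559).

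**Figure D2:**
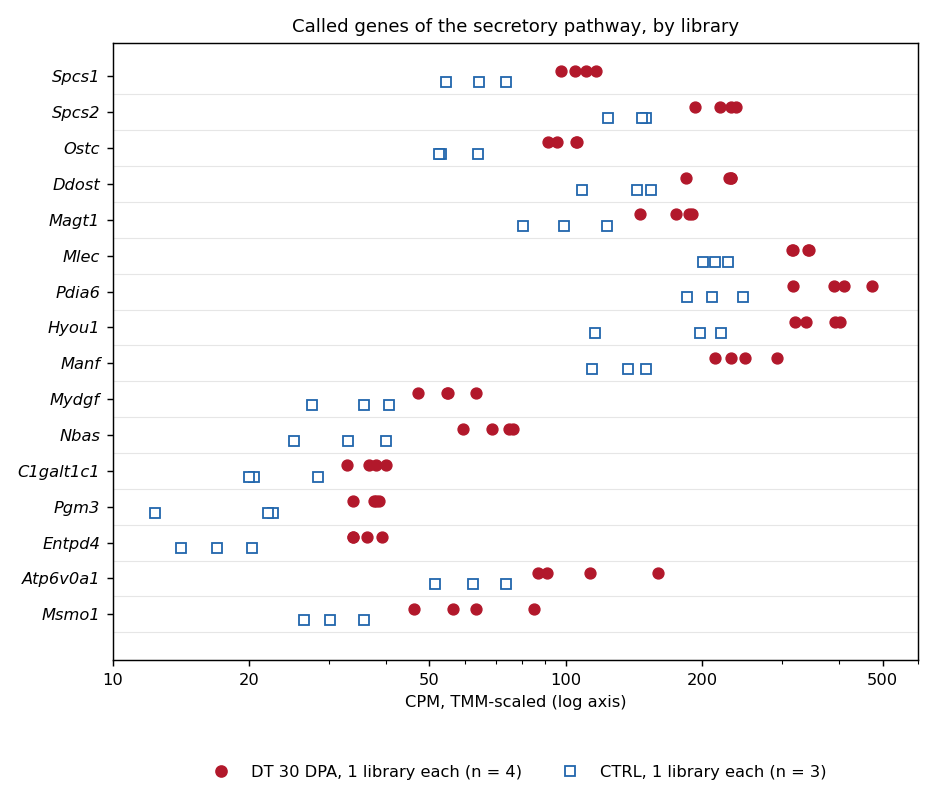
The 16 called genes of protein entry, glycosylation, folding, transport and sterol synthesis that are described in the text, with TMM-scaled CPM on a log axis. Each filled circle is a DT 30 DPA library (n = 4) and each open square a CTRL library (n = 3). The 16 were chosen among the called genes, and in each the groups are apart.

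The list of UPR and ER folding genes had 28 members, all tested. Of these, 25 had fold changes above 0, with a median log2 fold change of 0.49. All DT 30 DPA libraries lay above all CTRL libraries in 15, against 7.5% of all genes (19 without both replicates 2, against 12.5%). Pdia6, Hyou1 and Manf passed the test, and 8 members had an edgeR adjusted p below 0.06. Pdia6, a disulfide isomerase that limits IRE1 signalling, was at 473.2, 317.2, 389.8 and 410.3 CPM in DT 30 DPA islets, against 246.2, 184.8 and 210.1 CPM in CTRL islets, a 1.86-fold rise. Hyou1, an ER chaperone of the HSP70 family, was at 402.8, 320.0, 338.2 and 391.7 CPM in DT 30 DPA islets, against 197.8, 115.8 and 220.3 CPM in CTRL islets, a 2.04-fold rise. Manf, an ER-resident factor that supports beta-cell survival in mice, was at 292.8, 213.5, 231.4 and 249.0 CPM in DT 30 DPA islets, against 150.2, 114.4 and 136.8 CPM in CTRL islets, a 1.84-fold rise. The groups did not overlap in any of the 3 genes, which lie at chr12:17266545-17284770 (Pdia6), chr9:44379490-44392369 (Hyou1) and chr9:106838312-106891979 (Manf) in GRCm38. Mydgf, another secreted factor retained in the ER, rose 1.58-fold, and the thioredoxin-like gene Txnl1 rose 1.49-fold, neither being on the list.

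Further members of the UPR list are given by role. The chaperones Hspa5 (log2 fold change 0.69, SE 0.17), Dnajc3 (0.72, SE 0.17), Sdf2l1 (0.84, SE 0.20) and Dnajb9 (1.05, SE 0.27) all had edgeR adjusted p between 0.0502 and 0.0516 and groups that did not overlap. The stress-induced transcription factor gene Ddit3, which encodes CHOP, had a log2 fold change of 0.22 (SE 0.16, edgeR adjusted p 0.408), with 15.7 to 17.0 CPM in DT 30 DPA islets and 12.9 to 15.2 CPM in CTRL islets, ranges that lay close without overlapping. Genes of ER-associated degradation lay near 0: Herpud1 at -0.03 (SE 0.18), Syvn1 at -0.02 (SE 0.17) and Edem1 at 0.02 (SE 0.35). The pseudokinase gene Trib3, a CHOP target, was at -0.05 (SE 0.43). Differences between these members were not tested.

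The ER stress response element (ERSE, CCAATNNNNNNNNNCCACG), bound by NF-Y together with ATF6 or XBP1, was looked for on both strands of the promoters in RefSeq's table (build GRCm38.p6), each reaching from 250 bases before to 50 bases after a gene's start. It was found in 39 of 32851 promoters (0.119%). Of the 28 UPR genes, 23 had a promoter in the table and 8 of these held the element, whereas it was in 0 of the 32 promoters found for the list of ER entry, glycosylation and vesicle transport. The 8 were Hspa5, Calr, Hsp90b1, Canx, Pdia6, Dnajc3, Creld2 and Syvn1. Groups did not overlap, and DT 30 DPA was higher, in Hspa5, Calr, Canx, Pdia6 and Dnajc3, while they overlapped in Hsp90b1, Creld2 and Syvn1. Over the whole UPR list the groups were apart, with DT 30 DPA higher, in 15 of 28 genes, against 7.5% of all genes. Whether genes with the element differed from the rest of the list was not tested. A match is a description of the sequence and does not show binding. The promoters of Pdia6 (chr12:17266339-17266638, plus strand), Hspa5 (chr2:34771840-34772139, plus strand) and Dnajc3 (chr14:118937682-118937981, plus strand) are shown because they carry the element, in capitals, and the genes stood among the most clearly separated chaperones. The element begins at position -98 in Pdia6, -65 in Hspa5 and -105 in Dnajc3, counted from the annotated start. A related element, ERSE-II, was also looked for in the same promoters. It was in 2 of the 23 UPR promoters, those of Herpud1 and Dnajb11, and in 0 of the 32 of the ER entry list. Groups overlapped in both genes, with log2 fold changes of -0.03 for Herpud1 and 0.19 for Dnajb11.
Pdia6: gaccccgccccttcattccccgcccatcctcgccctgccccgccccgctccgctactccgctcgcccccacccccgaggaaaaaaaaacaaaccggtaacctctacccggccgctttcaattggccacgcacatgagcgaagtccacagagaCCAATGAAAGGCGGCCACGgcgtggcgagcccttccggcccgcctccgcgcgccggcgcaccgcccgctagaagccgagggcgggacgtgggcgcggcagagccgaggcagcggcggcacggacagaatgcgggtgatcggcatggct
Hspa5: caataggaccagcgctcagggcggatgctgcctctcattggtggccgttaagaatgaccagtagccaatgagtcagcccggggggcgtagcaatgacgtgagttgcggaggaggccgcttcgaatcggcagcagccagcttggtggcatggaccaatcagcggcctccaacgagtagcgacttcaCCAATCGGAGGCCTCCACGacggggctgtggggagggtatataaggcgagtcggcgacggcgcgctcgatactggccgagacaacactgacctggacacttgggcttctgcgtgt
Dnajc3: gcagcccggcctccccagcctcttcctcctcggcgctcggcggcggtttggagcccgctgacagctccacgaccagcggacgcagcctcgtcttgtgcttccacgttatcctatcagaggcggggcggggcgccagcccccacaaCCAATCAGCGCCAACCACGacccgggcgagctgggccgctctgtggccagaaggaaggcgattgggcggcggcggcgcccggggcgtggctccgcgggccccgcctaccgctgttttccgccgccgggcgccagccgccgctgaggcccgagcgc

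Sterol synthesis genes followed the secretory genes in direction. The list of sterol and fatty acid synthesis had 34 members, all tested. Of these, 30 had fold changes above 0 (median log2 0.59) and 1, Msmo1, passed the test. All DT 30 DPA libraries lay above all CTRL libraries in 11, against 7.5% of all genes (14 without both replicates 2, against 12.5%). Msmo1, which removes methyl groups from sterol precursors, was at 46.2, 84.8, 56.4 and 63.3 CPM in DT 30 DPA islets, against 30.1, 26.4 and 35.8 CPM in CTRL islets. DT 30 DPA replicate 2 was the highest library, and the groups did not overlap. Without that library the list's median was 0.28. Insig1, which holds the sterol sensor in the ER, was at 82.97, 90.8, 91.7 and 102.9 CPM in DT 30 DPA islets, against 52.7, 44.9 and 63.5 CPM in CTRL islets (edgeR adjusted p 0.0502). Sqle, an oxygenase of cholesterol synthesis, was at 62.3 to 103.4 CPM in DT 30 DPA islets and 27.6 to 54.0 CPM in CTRL islets (edgeR adjusted p 0.0516). Scd1, a fatty acid desaturase, ran the other way, with 66.8 to 170 CPM in DT 30 DPA islets and 106 to 271 CPM in CTRL islets.

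RNA of 2 other secretory sources moved with these genes. The acinar marker sum was 16075, 6680, 50181 and 36235 CPM in DT 30 DPA islets, against 9361, 1273 and 7902 CPM in CTRL islets, and no acinar marker was at 0 in any library. Acinar cells also have a large ER. The beta-cell marker sum was 200867, 125601, 187884 and 305927 CPM in DT 30 DPA islets, against 105205, 44496 and 145982 CPM in CTRL islets. The ranges of both sums overlapped between the groups, but without both replicates 2 they were apart, with DT 30 DPA higher. Of 30 acinar genes tested, 29 had fold changes above 0 (median log2 1.94) and none was called. Without overlap 5 of them were higher and 1 was lower, against 7.5% and 4.92% of all genes. Without both replicates 2 there were 22 higher and 1 lower, against 12.5% and 10.5%. The part of either source in the differences of the secretory genes was not tested. In bulk samples, more cells of a type and more RNA per cell cannot be told apart.

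The secretory genes were then followed at other times, with values side by side because the comparisons share libraries. The 5-day group (DT 5 DPA, n = 4) lay between the groups in many of them: Nbas was at 38.1 ± 3.5 CPM at 5 days and 69.8 ± 7.7 CPM at 30 days (SD, n = 4 each), with 32.8 ± 7.5 CPM in CTRL (SD, n = 3). Set against 5 days, 5371 genes (30.5%) passed the edgeR test at 30 days, 16.5% of all genes being higher. Without the libraries rich in enterocyte RNA, which include 3 of the 4 at 5 days, 912 genes passed, of which 117 were higher and 795 lower at 30 days, against 2914 and 2457 with all libraries. The calls below are those with all libraries. Nbas (log2 0.87, SE 0.18, edgeR adjusted p 0.00104), Hyou1 (log2 0.73, SE 0.20, edgeR adjusted p 0.00883), Magt1 (log2 0.58, SE 0.15, edgeR adjusted p 0.00656), Spcs2 (log2 0.46, SE 0.11, edgeR adjusted p 0.00425) and Msmo1 (log2 0.87, SE 0.18, edgeR adjusted p 0.0011) were higher at 30 days than at 5 days. Other called secretory genes did not pass against 5 days, among them Ostc, Manf, Spcs1, Ddost and Mydgf (edgeR adjusted p 0.0523, 0.101, 0.144, 0.248 and 0.626) and Pdia6 (0.998). Pdia6 was at 397 ± 18 CPM at 5 days and 398 ± 64 CPM at 30 days (SD, n = 4 each). Over the whole ER entry list 8 of 40 genes were called higher at 30 than at 5 days, near the 16.5% of all genes. Over the UPR list 4 of 28 were, and the list's median difference was 0.03.

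At 10 weeks on the diet labelled SD, DT islets (DT SD, n = 4) were compared with their own untreated group (CTRL SD, n = 3). Only 6 genes (0.0341%) passed the edgeR test there, 1 higher (0.00568%) and 5 lower (0.0284%) in DT SD, and none was on the ER entry or UPR list; leaving out CTRL SD replicate 3, DT SD replicate 1 or DT SD replicate 3 left 2. The median log2 difference of the ER entry list was 0.20 and that of the UPR list 0.22. Entpd4 was at 35.7 ± 2.2 CPM in DT SD islets (SD, n = 4) and 22.8 ± 2.9 CPM in CTRL SD islets (SD, n = 3), with an edgeR adjusted p of 0.268. The untreated groups were not at the same level, a difference that was not tested: Hyou1 averaged 308 ± 32 CPM in CTRL SD and 178 ± 55 CPM in CTRL (SD, n = 3 each). When the difference between the 30-day and the 10-week contrast was tested, 0 of 17616 genes passed in edgeR, with 937 at an unadjusted p below 0.05, 33 in DESeq2 and 730 in limma voom.

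**Figure D3:**
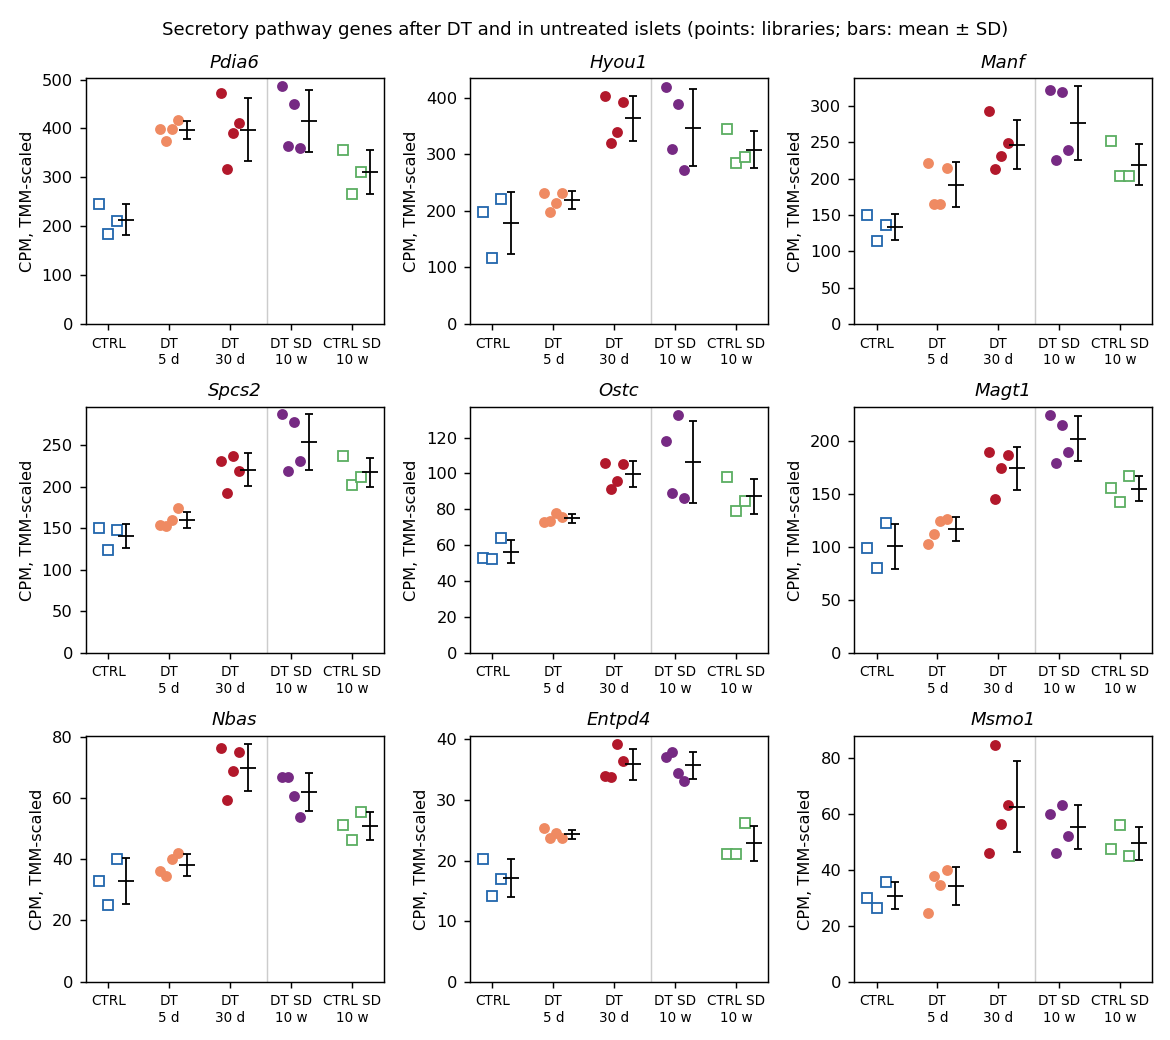
TMM-scaled CPM of 9 secretory pathway genes, one panel a gene: CTRL (n = 3), DT 5 DPA (n = 4) and DT 30 DPA (n = 4), then, right of the grey line, DT SD (n = 4) and CTRL SD (n = 3) at 10 weeks. Points are libraries and bars the mean ± SD. Nbas and Hyou1 are higher at 30 than at 5 days, and Pdia6 is at a like level at both.

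The islet hormones had no called gene and the groups overlapped in 8 of 9, although without both replicates 2 they were apart, with DT 30 DPA higher, in 5 of 9, against 12.5% of all genes. Ins2, the main insulin gene in mice, was at 134307, 83818, 127307 and 211683 CPM in DT 30 DPA islets, against 75913, 31786 and 100393 CPM in CTRL islets (edgeR adjusted p 0.266). DT 30 DPA replicate 2 lay below CTRL replicate 3, so the groups overlapped. Gcg, the glucagon gene of alpha cells, was at 29984, 31430, 40895 and 31612 CPM in DT 30 DPA islets, against 17988, 7351 and 26292 CPM in CTRL islets. It was the 1 hormone whose groups did not overlap (edgeR adjusted p 0.137). Sst of delta cells and Ppy of gamma cells spread widely in both groups, Ppy lying between 458 and 3277 CPM in DT 30 DPA islets and between 671 and 3824 CPM in CTRL islets. The amyloid gene Iapp had a log2 fold change of 1.26 (SE 0.43, edgeR adjusted p 0.0834) and Ucn3, a marker of mature beta cells, of 1.08 (SE 0.45, edgeR adjusted p 0.136), with overlapping groups in both. Ins1, Ins2, Iapp and Ucn3 were among the hormone genes apart without both replicates 2.

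Beta-cell identity genes gave no call either. Of 20 transcription factors on the beta-cell list, 17 had fold changes above 0 (median log2 0.56) and 1 had non-overlapping groups, against 7.5% of all genes; without both replicates 2 there were 4 of 20, against 12.5% of all genes, Mafa among them. Mafa, an activator of the insulin gene, was at 116.2, 99.2, 125.6 and 201.0 CPM in DT 30 DPA islets, against 83.6, 27.0 and 106.1 CPM in CTRL islets (edgeR adjusted p 0.199). Pdx1, Nkx6-1 and the glucose transporter gene Slc2a2 also overlapped between groups, with log2 fold changes of 0.71, 0.76 and 0.41. CTRL replicate 2 was the lowest of the 7 libraries in all 4 of these genes. Of 20 genes of glucose sensing and excitation, all were above 0. Groups did not overlap in 2, against 7.5% of all genes (4 without both replicates 2, against 12.5%).

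**Figure D4:**
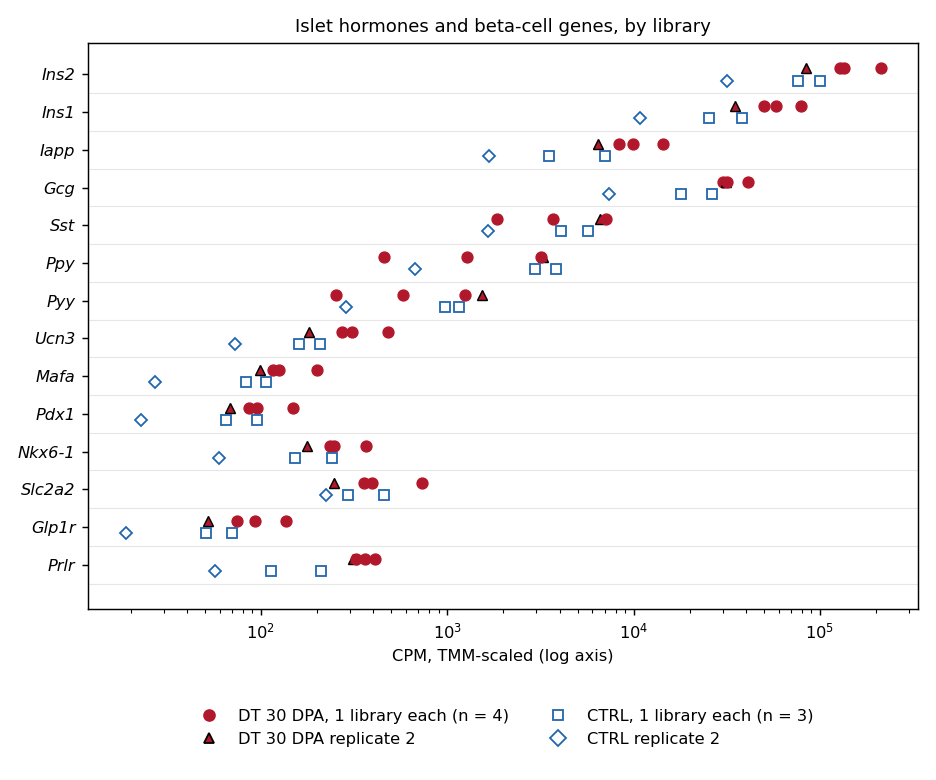
TMM-scaled CPM on a log axis of 7 islet hormone genes, 6 beta-cell genes and Prlr, with DT 30 DPA libraries as filled symbols (n = 4, replicate 2 as a triangle) and CTRL libraries as open symbols (n = 3, replicate 2 as a diamond). CTRL replicate 2 is lowest in most genes. The groups are apart in Gcg and Prlr and overlap in the rest.

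Of 20 genes of prohormone processing and granins, all had fold changes above 0 (median log2 0.84). Groups did not overlap in 10, against 7.5% of all genes (14 without both replicates 2, against 12.5%). The signal peptidase gene Spcs1 was the list's 1 called member. The median was 0.51 without CTRL replicate 2. Pcsk1, the convertase that makes the first cut in proinsulin, was at 214 to 317 CPM in DT 30 DPA islets and 39.3 to 167 CPM in CTRL islets (edgeR adjusted p 0.0695). Vgf, a granin-like precursor, was at 18.6, 50.4, 13.9 and 27.3 CPM in DT 30 DPA islets, against 5.85, 2.04 and 9.09 CPM in CTRL islets (edgeR adjusted p 0.0516). Of 24 genes of granule exocytosis, all were above 0 and 8 had non-overlapping groups (9 without both replicates 2), against the same shares of all genes. Those with the smallest p, Rab3c, Snap25 and Cplx1, are also neuronal and were highest in DT 30 DPA replicate 2, with 329.5, 631.1 and 125.4 CPM.

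Prlr, the prolactin receptor that drives beta-cell growth in pregnancy, was at 410.4, 311.9, 360.4 and 324.1 CPM in DT 30 DPA islets, against 113.4, 56.9 and 209.2 CPM in CTRL islets. The groups did not overlap and the ratio was 2.78, at an edgeR adjusted p of 0.0664, above the threshold. Without CTRL replicate 2 the log2 fold change of Prlr was 1.13, against 1.47 with it. At 5 days Prlr averaged 137 ± 6.9 CPM (SD, n = 4), and the 30-day group was higher than the 5-day group (log2 1.36, SE 0.40, edgeR adjusted p 0.013). Among receptors that tune secretion, 6 of 19 tested had non-overlapping groups, against 7.5% of all genes (11 without both replicates 2, against 12.5%). Adra2a, the receptor through which noradrenaline inhibits insulin release, was at 64.2 to 87.3 CPM in DT 30 DPA islets and 16.6 to 48.4 CPM in CTRL islets (edgeR adjusted p 0.101).

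Hbegf is the mouse homologue of the primate gene that encodes the DT receptor. It was at 12.9, 22.0, 13.1 and 14.7 CPM in DT 30 DPA islets, against 58.2, 23.5 and 93.5 CPM in CTRL islets (edgeR adjusted p 0.155). All DT 30 DPA libraries lay below all CTRL libraries, DT 30 DPA replicate 2 and CTRL replicate 2 being the nearest pair. At 5 days Hbegf averaged 10.52 ± 3.47 CPM (SD, n = 4). The sources used here do not say whether reads of the transgene were counted in Hbegf.

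Neuropeptide genes were among the called genes with the largest fold changes. Vip (chr10:5639218-5647617), a peptide of parasympathetic nerves that stimulates insulin release, was at 153.7, 270.2, 120.4 and 529.1 CPM in DT 30 DPA islets, against 34.5, 17.6 and 39.0 CPM in CTRL islets, an 8.84-fold rise. Npy, found in sympathetic nerves and in immature beta cells, was at 34.5, 493.5, 27.1 and 114.5 CPM in DT 30 DPA islets, against 15.6, 6.41 and 13.9 CPM in CTRL islets. Cartpt, a peptide of islet nerves and some endocrine cells, was at 8.32, 14.3, 6.50 and 50.8 CPM in DT 30 DPA islets, against 0.810, 1.02 and 1.17 CPM in CTRL islets. The groups did not overlap in these 3 genes, and the highest library was replicate 4 for Vip and Cartpt and replicate 2 for Npy. Without DT 30 DPA replicate 2 the log2 fold change of Npy was 2.29, against 3.80 with it, and those of Vip and Cartpt were 3.14 and 4.44. Without replicate 4 they were 2.58 for Vip, against 3.14 with it, and 3.27 for Cartpt, against 4.31 with it. Of 15 neuropeptide genes tested, 8 were higher and 1 was lower with non-overlapping groups, against 7.5% and 4.92% of all genes. Without both replicates 2 there were 8 higher and 3 lower, against 12.5% and 10.5%. Among the 8 that were higher with all libraries was Pdyn, the dynorphin precursor. It was at 28.9 to 44.5 CPM in DT 30 DPA islets and 2.34 to 10.7 CPM in CTRL islets (edgeR adjusted p 0.0516). Penk, the enkephalin precursor, was the 1 with all 4 DT 30 DPA libraries below all 3 CTRL libraries (log2 -0.80, SE 0.46). At 5 days Vip was at 80.6, 127.7, 428.6 and 144.7 CPM, and its 30-day level did not pass the test against these (edgeR adjusted p 0.525).

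A further 5 called genes, most of them known from neurons, were highest in DT 30 DPA replicate 2. Rit2, a neuronal GTPase, was at 9.42, 85.8, 9.34 and 14.6 CPM in DT 30 DPA islets, against 2.43, 1.498 and 5.16 CPM in CTRL islets. Sv2c, a synaptic vesicle protein gene, was at 16.3, 162.8, 12.4 and 20.3 CPM in DT 30 DPA islets, against 6.08, 3.36 and 9.28 CPM in CTRL islets. Replicate 2 was highest in both, and the other 3 DT 30 DPA libraries also lay above CTRL. The same order held for Reep1, Hpcal4 and Tmem179, whose replicate 2 values were 124.8, 63.3 and 45.5 CPM. The list of sympathetic and peripheral neuron genes had a median log2 fold change of 2.85 over 19 tested genes, and 0.91 without that library. Th, the rate-limiting enzyme of catecholamine synthesis, was at 12.1, 382.5, 29.2 and 51.1 CPM in DT 30 DPA islets, against 15.5, 3.78 and 23.0 CPM in CTRL islets, and its groups overlapped.

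**Figure D5:**
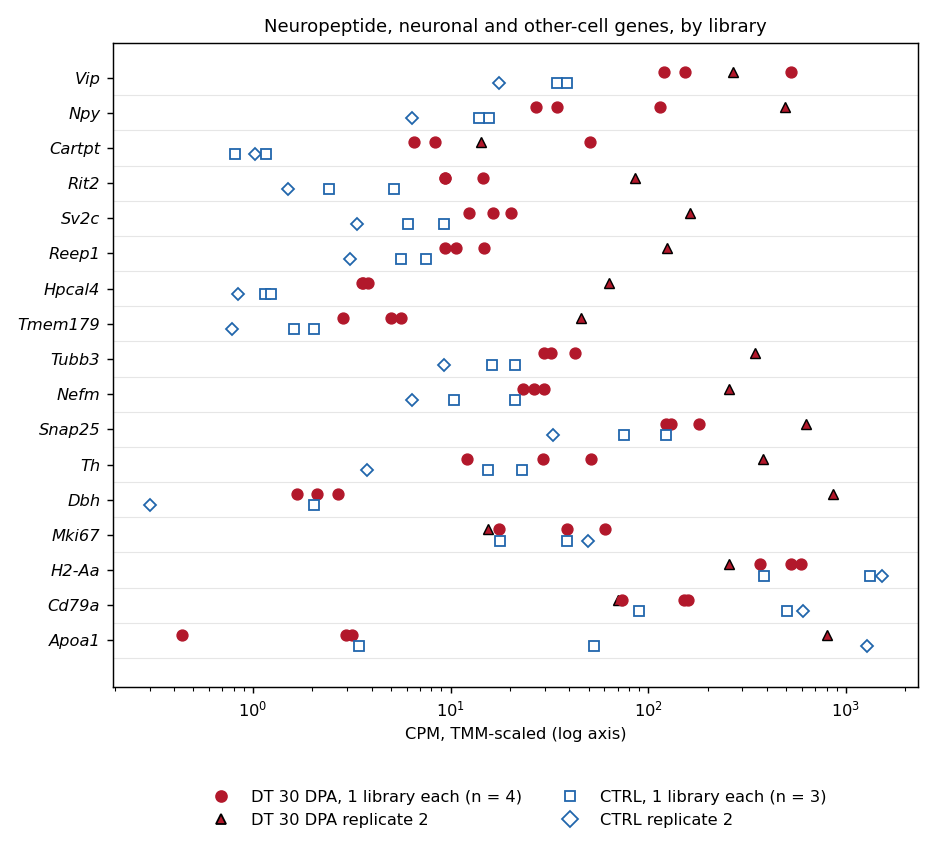
TMM-scaled CPM on a log axis of neuropeptide and neuronal genes and of markers of dividing cells (Mki67), antigen-presenting cells (H2-Aa), B cells (Cd79a) and enterocytes (Apoa1). Filled symbols are DT 30 DPA libraries (n = 4, replicate 2 as a triangle) and open symbols CTRL libraries (n = 3, replicate 2 as a diamond; the library at 0 for Dbh is not drawn). DT 30 DPA replicate 2 stands to the right of its group in the neuronal genes.

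Other called genes that rose were Prrt3, Rimkla, Eml6 and the stress kinase gene Plk3. Rimkla, which makes the neuronal dipeptide NAAG, was at 5.48, 7.09, 5.01 and 6.92 CPM in DT 30 DPA islets, against 1.04, 1.44 and 3.62 CPM in CTRL islets. Eml6, a microtubule-binding protein gene, was at 26.3, 26.1, 22.3 and 26.7 CPM in DT 30 DPA islets, against 8.39, 7.67 and 19.2 CPM in CTRL islets. Both were also higher at 30 days than at 5 days, with edgeR adjusted p of 0.00031 and 0.000104. Among called immunoglobulin genes, Igkv3-9 was at 222.7, 11.3, 29.2 and 2.18 CPM in DT 30 DPA islets, against 0.116, 0.539 and 0 CPM in CTRL islets. Its groups did not overlap, and without replicate 1, the highest library, its log2 fold change was 5.92 against 8.19 with it. Igkv14-130 stayed within 0.387 CPM in DT 30 DPA islets and reached 49.5 CPM in CTRL replicate 2, without which its log2 fold change was -2.13 against -6.60 with it. Reads of these families can be split between near-identical copies.

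The 10 called genes that were lower in DT 30 DPA islets included Trp53, Ier2, Renbp, Kctd14, Mbtd1 and Zfp740. Trp53 (chr11:69580359-69591873), the gene of the tumour suppressor p53, was at 42.5, 31.5, 42.4 and 29.9 CPM in DT 30 DPA islets, against 71.8, 88.2 and 45.5 CPM in CTRL islets. CTRL replicate 3 lay only just above the DT 30 DPA libraries. Trp53 fell 1.87-fold, but of 24 genes on the list of p53 and its targets it was the 1 called, and Cdkn1a, the p53 target that blocks the cell cycle, overlapped between the groups (log2 0.16, SE 0.47). Ier2, an immediate early gene, was at 17.1, 12.3, 21.9 and 18.7 CPM in DT 30 DPA islets, against 39.0, 49.3 and 24.7 CPM in CTRL islets. Kctd14 was at 3.16, 1.47, 3.66 and 2.40 CPM in DT 30 DPA islets, against 8.45, 9.11 and 9.40 CPM in CTRL islets, the clearest separation of these. Renbp, a renin-binding epimerase, fell 2.51-fold against CTRL and was also lower at 30 days than at 5 days (log2 -2.12, SE 0.27, edgeR adjusted p 4.01e-06). Serpina1b, a protease inhibitor gene with near-identical copies, was at 0.219 to 2.32 CPM in DT 30 DPA islets and 4.85 to 14.9 CPM in CTRL islets. The remaining 2 were Gltscr2, a ribosome assembly factor also called Nop53, whose groups overlapped, and Tcp11l2.

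Fatty acid oxidation genes leaned lower. Of 23 tested, 19 had fold changes below 0 (median log2 -0.39) and none was called. All DT 30 DPA libraries lay below all CTRL libraries in 6, against 4.92% of all genes. Ech1, an isomerase of fatty acid breakdown, was at 41.4, 35.7, 32.4 and 33.4 CPM in DT 30 DPA islets, against 58.6, 71.9 and 50.6 CPM in CTRL islets (edgeR adjusted p 0.0516). Angptl4, an inhibitor of lipoprotein lipase, was at 11.6, 12.3, 2.37 and 3.71 CPM in DT 30 DPA islets, against 24.2, 22.0 and 22.0 CPM in CTRL islets (edgeR adjusted p 0.0921). Fatty acid oxidation is also high in enterocytes, and the part of enterocyte RNA in these differences was not tested. Without both replicates 2, 10 of the same 23 genes were lower and 2 higher without overlap, against 10.5% and 12.5% of all genes. The median log2 ratio was then -0.20. Txnip, a glucose-induced inhibitor of thioredoxin, was at 321.9, 271.3, 300.2 and 327.0 CPM in DT 30 DPA islets, against 484.8, 409.6 and 439.4 CPM in CTRL islets, with an edgeR adjusted p of 0.0633.

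Immune genes had list medians below 0, but few had groups apart. All 22 B-cell genes, all 26 T-cell genes and all 20 genes of MHC class II presentation had fold changes below 0. Their median log2 values were -1.69, -1.84 and -1.24, and none was called. Groups did not overlap in 1, 0 and 1 of them, against 4.92% of all genes. Without both replicates 2 the medians were -1.05, -0.69 and -0.72. The T-cell marker sum was 11.3 to 46.9 CPM in DT 30 DPA islets, against 99.8, 255 and 16.1 CPM in CTRL islets, CTRL replicate 2 being the highest. H2-Aa, a class II chain, was at 592.5, 255.6, 529.9 and 368.4 CPM in DT 30 DPA islets, against 1333, 1524 and 386.4 CPM in CTRL islets (edgeR adjusted p 0.065). CTRL replicate 3 lay within the DT 30 DPA range, and the same held for its B-cell marker sum, 179 CPM, against 142 to 335 CPM in DT 30 DPA islets. The interferon list had 29 of 30 genes below 0 and 4 lower with non-overlapping groups, against 4.92% of all genes. Without both replicates 2 there were 6, against 10.5% of all genes, and the median log2 was -0.53 against -0.86 with them. Gbp4 was among the 4, at 22.6 to 43.9 CPM in DT 30 DPA islets and 48.1 to 117 CPM in CTRL islets (edgeR adjusted p 0.0516). Adgre1, which encodes the macrophage marker F4/80, was lower at 30 days than at 5 days (edgeR adjusted p 6.12e-08). It was at 31.03, 15.08, 10.97 and 21.99 CPM in DT 30 DPA islets, against 24.0, 17.4 and 14.4 CPM in CTRL islets, and at 183.6 to 295.8 CPM at 5 days. The list of macrophage and monocyte identity leaned lower against CTRL, with 19 of 24 tested genes below 0 and none called. Its median log2 was -0.60, and -0.36 without both replicates 2. The macrophage marker sum was 82.2 to 153 CPM in DT 30 DPA islets, against 216, 211 and 99.1 CPM in CTRL islets.

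Proliferation genes had no call. All 27 mitosis genes tested had fold changes below 0 (median log2 -0.54) and none was called. Groups overlapped in all of them, whereas 4.92% of all genes were lower without overlap. Mki67, the proliferation marker, was at 60.3, 15.5, 38.9 and 17.6 CPM in DT 30 DPA islets, against 38.8, 49.4 and 17.8 CPM in CTRL islets. Without both replicates 2 the median log2 ratio of the mitosis list was 0.09, and again none of its genes had groups apart. Ribosomal proteins of the large subunit also leaned lower: 39 of 40 were below 0 (median log2 -0.56) and 1 was lower without overlap, against 4.92% of all genes. Without both replicates 2 their median stayed below 0, at -0.20. Then 2 were higher and 1 was lower without overlap, against 12.5% and 10.5% of all genes. Col1a1, a collagen gene of fibroblasts that was at 552.5 to 702.5 CPM at 5 days, was at 133 to 151 CPM in DT 30 DPA islets and 75.1 to 184 CPM in CTRL islets.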

How the data were processed

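Poly(A)-selected RNA of whole mouse islets was sequenced with a stranded kit, per the labels' protocols. The authors deposited 1 table of raw read counts per gene, of which the total-count columns were used, matched to samples by the library number in each description. The genome build was mm10 per the submitters' processing notes; the sources used here do not name the aligner, the counting tool or its strand setting, so overlapping genes and near-identical copies may share reads. The TPM and RPKM columns and the rescaled CPM columns (a score here, as their sums differ) were made by the authors, per the file headers, and enter no test. Of 48709 identifiers, 48349 (99.26%) are in GENCODE release M21 (GRCm38).

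Counts of 33 libraries in 9 groups were fitted together with edgeR 4.0.16 in R 4.3.3 (filterByExpr by group at 10 counts in a library and 15 in all, TMM, robust quasi-likelihood F test, Benjamini-Hochberg over 17616 genes, threshold 0.05); 1 library whose title and treatment label disagree was left out. The script was tested on simulated data. Single values of 4 against 3 libraries cannot give an exact two-sided permutation p under 0.0571. Alternatives used limma 3.58.1 and DESeq2 1.42.0, other filters and scalings, a replicate block and libraries left out. No pair of libraries agreed within sampling noise (smallest chi-square per degree of freedom 62.8). Named by rule were all called genes with assigned symbols, a panel of islet genes and the 3 members of each list with the smallest p; further list members were chosen after their values were seen, and some genes are not reported here. The comparison, the members and the gene lists were chosen with earlier results of these data known. Intervals on depth cover counting error only.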

Additional observations from a re-analysis of the deposited data

Results flagged for a closer look

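Among 60 named genes, 10 had 1 DT 30 DPA library that stood apart from the other 3 by Dixon's test at its 95% critical value, where chance flags about 1 in 20 groups. Of the 10, 6 stood apart in replicate 2, 2 in replicate 1 and 2 in replicate 3. In replicate 2 these were the neuronal genes Rit2 (85.8 CPM), Sv2c (162.8 CPM), Reep1 (124.8 CPM), Hpcal4 (63.3 CPM) and Tmem179 (45.5 CPM), all high, and Ddost (184.2 CPM), which was low. Replicate 1 was high in Igkv3-9 (222.7 CPM) and in the acute-phase gene Saa3 (24.3 CPM). Replicate 3 was high in Gcg (40895 CPM) and low in Eml6 (22.3 CPM).

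The effect of DT differed between 30 and 5 days in 18 of 23 panel genes by edgeR's test, against 30.5% of all genes (16.5% higher and 13.9% lower). In that test CTRL, shared by both, cancels. Higher at 30 days than at 5 days, in log2, were the endocrine genes Sst (2.24), Pyy (2.14), Glp1r (1.91), Gcg (1.42), Nkx6-1 (1.41), Iapp (1.40), Ucn3 (1.38), Ins1 (1.30), Slc2a2 (1.26), Mafa (1.20) and Pdx1 (1.20). The neuropeptide gene Npy was also higher (1.98), with 493.5 CPM in DT 30 DPA replicate 2. Its other DT 30 DPA libraries were at 34.5, 27.1 and 114.5 CPM, against 15.8, 34.0, 93.0 and 27.5 CPM at 5 days. Lower at 30 days were Saa3 (-8.56), the macrophage gene Adgre1 (-3.52), the collagen gene Col1a1 (-2.17), Cdkn1a (-1.96), the mitosis gene Top2a (-1.65) and Trp53 (-0.49). At 5 days 3 of 4 libraries held over 500 CPM of enterocyte markers, and the part of that RNA in these differences was not tested.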

How the results depend on the processing

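The count of 41 called genes depended on nearly every choice. It was 72 with DESeq2 size factors, 1 without a low-count filter, 259 with a stricter filter, 0 with the compared groups alone (2483 genes at an unadjusted p below 0.05), 1 without robust shrinkage, 1849 with the DESeq2 Wald test, 6698 with limma voom, 312 with hormone genes left out before scaling, 0 without libraries rich in enterocyte RNA (1550 unadjusted) and 497 at an adjusted p below 0.06, a threshold chosen after seeing the data. With 1 library left out it ran between 0 and 4273. With the replicate block it was 0. Same-numbered libraries deviated from their group means with correlations of 0.21, 0.27 and -0.05, which do not settle whether replicate numbers pair the samples. DT 30 DPA replicates 1 and 2 correlated best with the CTRL library of the same number, and DT 30 DPA replicate 3 with CTRL replicate 1 (0.21). The largest correlation of all, 0.38, was between unlike numbers, DT 30 DPA replicate 4 and CTRL replicate 3. Both replicates 2 held enterocyte RNA. All of the 41 genes that a setting could test kept their direction in it. As they were chosen on the same libraries, and 39 of them had groups that did not overlap, this was to a large part fixed in advance. Depth was even and did not separate the groups.

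For DT SD against CTRL SD the count of 6 was 27 with the compared groups alone, 154 with DESeq2, 437 with voom, 22 without enterocyte-rich libraries and 2 to 6 with 1 library left out. The difference of the contrasts, 0, was 33 with DESeq2, 730 with voom, 1 with hormone genes left out and 3 without enterocyte-rich libraries. The 30-day against 5-day count of 5371 was 912 without those libraries.

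Reversals were found only in genes that were not called, the called genes having been chosen for their difference in these same libraries. With voom they were Pyy (-0.47), Adgre1 (-0.30) and Cftr (0.31), and with the replicate block Ppy (0.48) and Mki67 (0.038). Without enterocyte-rich libraries they were Sst (-0.22), Pyy (-0.62), Mki67 (0.46), Top2a (0.17), Col1a1 (-0.14), Fgf1 (-0.15), Nrg1 (-0.16), Mcam (-0.069), Ngfr (-0.22) and Fabp7 (-0.43). With 1 library left out the log2 fold change spanned 0 in Cdkn1a (-0.10 to 0.86), Npy1r (-0.83 to 0.035), Sst (-0.026 to 0.74), Pyy (-0.23 to 0.53), Mki67 (-0.60 to 0.22), Col1a1 (-0.13 to 0.50), Lgals4 (-4.67 to 2.24), Cldn15 (-4.07 to 1.76), Ppy (-0.72 to 0.18), Adgre1 (-0.24 to 0.32) and Fabp7 (-0.11 to 2.93). The causes were not tested.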

Other observations

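Cytosolic heat shock chaperones leaned higher in DT 30 DPA islets: 19 of 20 tested genes had log2 fold changes above 0 (median 0.32), 4 had non-overlapping groups against 7.5% of all genes (9 without both replicates 2, against 12.5%), and none was called. Subunits of oxidative phosphorylation had 19 of 38 genes above 0, a median of 0.00 and 2 genes higher without overlap, against 7.5% of all genes. Without both replicates 2 there were 16 higher and 0 lower without overlap, against 12.5% and 10.5% of all genes, and the median was 0.13. Collagens and extracellular matrix genes, which were lower at 30 days than at 5 days in 25 of 28 genes by edgeR's test against a background of 13.9%, had a median of -0.04 against CTRL and no gene with non-overlapping groups; without both replicates 2 the median was -0.29 and 7 of 28 were lower without overlap, against 10.5% of all genes. Genes disallowed in beta cells or tied to dedifferentiation had a median of -0.65 over 19 tested genes. Without overlap 1 was higher and 3 were lower, against 7.5% and 4.92% of all genes. Without both replicates 2 there were 2 and 6, against 12.5% and 10.5%. Endothelial, duct and Schwann cell lists had medians of -0.26, -0.05 and 0.00 and no called gene. Without both replicates 2 the medians were -0.34, 0.05 and -0.86, and 7 of 22 endothelial genes were lower without overlap, against 10.5% of all genes.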
